A study of Homo sapiens with 6 samples.

Results

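The serpins and the plasminogen activator system were followed in SKOV3, an established human epithelial ovarian cancer cell line, after knockdown of the translation factor gene EIF5A2. The members were taken by name only, as every protein-coding gene whose symbol starts with SERPIN together with PLAU, PLAUR and PLAT. This gave 37 genes, 34 serpins and 3 others, out of 58825 gene identifiers in the deposited table, and 36 of them are described. Both groups were SKOV3 cells transfected with small interfering RNA for 48 h, NC with a negative control and si-EIF5A2 with an RNA against EIF5A2, and each had 3 RNA-seq libraries. All values therefore come from 1 cell line without other cells of a tumour, and every group carries the transfection. The labels do not say whether the 3 libraries of a group came from separate cultures, so the p-values measure the spread between these libraries, which may be technical.

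Serpins are a family of proteins that mostly act as suicide inhibitors of serine proteases: the protease cuts the serpin and stays bound to it. The plasminogen activators urokinase (PLAU) and tissue plasminogen activator (PLAT) cut plasminogen into plasmin, a protease that breaks down fibrin and extracellular matrix, and the receptor PLAUR holds urokinase at the cell surface. Several serpins inhibit these activators, and others act on plasmin itself. The system is known in ovarian cancer for its part in invasion and in the attachment of cells to the peritoneum. A separate branch, the clade B serpins, lacks a classical signal peptide and mostly works inside cells, where it limits leaked lysosomal or granule proteases.

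The knockdown was visible in its target. EIF5A2 was at 27.8, 29.8 and 29.9 CPM (counts-per-million, scaled by the TMM library factors) in the 3 NC libraries and at 2.76, 4.04 and 4.27 in the 3 si-EIF5A2 libraries. The si-EIF5A2 mean was 12.7% of the NC mean, with a log2 fold change of -2.98 ± 0.18 (SE, edgeR adjusted p = 1.60e-05). The libraries held between 46900204 and 74142267 estimated counts. One sequenced fragment was worth about 3.82 of these counts, and 3 fragments corresponded to 0.155 to 0.244 CPM. Of 9 tested epithelial markers, KRT8 and PAX8 fell, and the summed level of that list of 10 was 1138 to 1269 CPM in NC and 758 to 953 CPM in si-EIF5A2, with MUC16 at 0 in every library. The 5 endothelial markers summed to 28.2 to 32.4 CPM in NC, nearly all of it CDH5, and to 0.958 to 1.88 CPM in si-EIF5A2. CDH5 was at 28.3 ± 2.14 and 0.833 ± 0.234 CPM (SD, n = 3 each). Of the 4 endothelial markers tested, CDH5 was the only 1 called. The 5 fibroblast markers summed to 0.362 to 3.38 CPM and the 6 leukocyte markers, nearly all of it CD68, to 29.4 to 58.3 CPM over the libraries, with 0 called in either list. Hepatocyte and squamous markers summed to at most 0.274 CPM in any library. The part of these marker shifts in the results that follow was not tested.

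Of the 36 members described, 17 had enough counts to be tested and 19 did not. A gene was called when its adjusted p was under 0.05 and its fold change over 1.5. By this rule 7 of the 17 were called, 41.2%, while 24.6% of all 16208 tested genes were. SERPINE2, SERPINB2, SERPINB7 and SERPINB8 rose, 4 of 17, where 11.1% of all tested genes were called higher. PLAT, SERPINI1 and SERPINA1 fell, 3 of 17, where 13.6% of all tested genes were called lower. SERPINB2 entered the test only through its si-EIF5A2 libraries and had to differ. Without it, 6 of 16 were called, 3 higher and 3 lower. The log2 fold change had a median of -0.25 over these 17 genes and of -0.01 over all tested genes. The NC and si-EIF5A2 ranges did not overlap for 12 of the 17, and for 51.2% of all tested genes. Without SERPINB2, 11 of 16 had no overlap, and the median log2 fold change of these 16 was -0.27. Another 3 members, PLAU, SERPINB1 and SERPINB6, had an adjusted p under 0.05 and a change below the 1.5-fold limit. In these bulk samples, fewer cells of a type and less RNA per cell cannot be told apart.

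**Figure D1:**
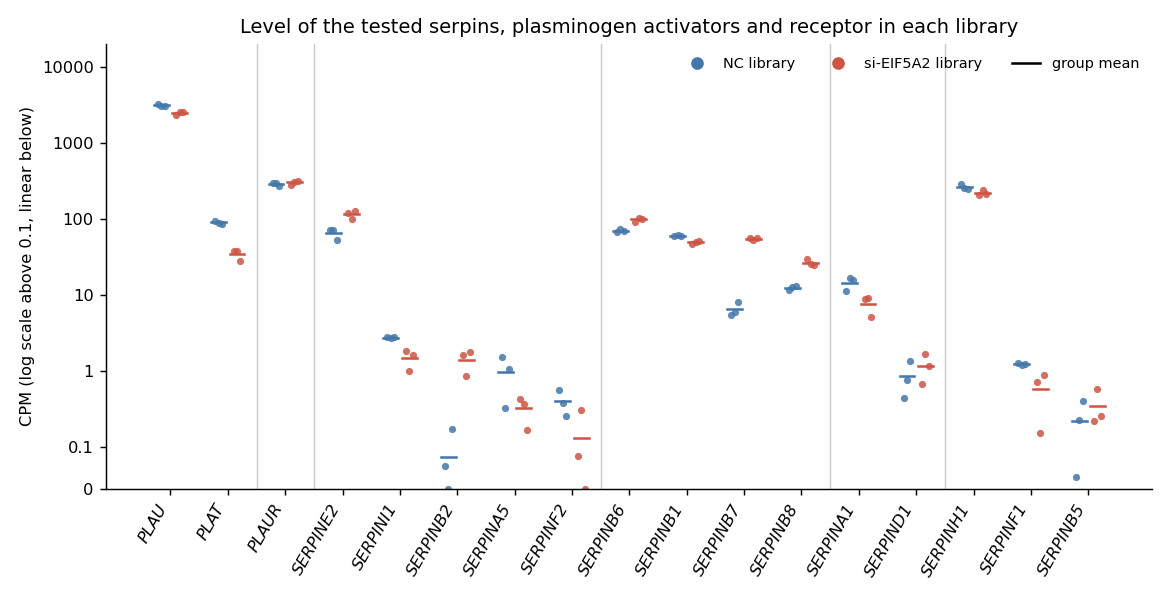
Level of each of the 17 tested members described, in every library, in CPM on a scale that is logarithmic above 0.1 and linear below. Points are libraries, short lines are group means of 3, and vertical lines separate activators, receptor, activator inhibitors, clade B serpins, secreted inhibitors and non-inhibitory serpins. SERPINB7 stood between 5.37 and 7.997 CPM in NC and between 52.4 and 55.7 CPM in si-EIF5A2, while the PLAUR ranges overlapped.

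The activators were both lower after the knockdown, by very different amounts. PLAT, on chromosome 8 (42175233 to 42207724, minus strand, GENCODE release 29 on GRCh38), was at 94.1, 89.2 and 84.7 CPM in NC and at 37.8, 37.9 and 27.8 CPM in si-EIF5A2. All si-EIF5A2 libraries lay far under the lowest NC library. The mean was 89.3 ± 4.70 CPM in NC and fell to 34.5 ± 5.79 CPM (SD over 3 libraries). The log2 fold change was -1.37 ± 0.13 (SE, edgeR adjusted p = 0.000142). PLAU, on chromosome 10 (73909177 to 73917497, plus strand), was at 3234, 3074 and 3049 CPM in NC and at 2291, 2517 and 2553 CPM in si-EIF5A2. These ranges did not overlap either, and the si-EIF5A2 mean was 78.7% of the NC mean. Per kilobase of exon, PLAU ranked from 41 to 43 among all genes in the NC libraries and from 46 to 50 in the si-EIF5A2 libraries. The log2 fold change of PLAU was -0.35 ± 0.07 (SE, edgeR adjusted p = 0.00529), a difference that passed the p limit and not the fold limit.

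The urokinase receptor showed no detectable difference. PLAUR, on chromosome 19 (43646095 to 43670547, minus strand), was at 298, 295 and 266 CPM in NC and at 280, 305 and 317 CPM in si-EIF5A2. The groups overlapped, and the log2 fold change was 0.07 ± 0.08 (SE, edgeR adjusted p = 0.552). PLAUR is a glycolipid-anchored protein that binds urokinase and, through integrins and vitronectin, takes part in adhesion.

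Of the 5 serpins described that act on plasminogen activators or plasmin, 2 rose, 1 fell and 2 were not called, where 11.1% of all tested genes were called higher and 13.6% lower. One that rose was SERPINB2, whose direction the filter on low counts had fixed. SERPINE2, or protease nexin 1, a secreted inhibitor of thrombin, urokinase and plasmin, was at 71.9, 71.8 and 52.9 CPM in NC and at 118, 98.8 and 127 CPM in si-EIF5A2, with no overlap. The log2 fold change was 0.81 ± 0.15 (SE, edgeR adjusted p = 0.0038). SERPINI1, or neuroserpin, an inhibitor of tissue plasminogen activator known from neurons, went the other way at a low level. It was at 2.74, 2.67 and 2.77 CPM in NC and at 1.80, 0.996 and 1.63 CPM in si-EIF5A2, a log2 fold change of -0.89 ± 0.28 (SE, edgeR adjusted p = 0.0375). The groups did not overlap, and the call was lost when any library other than si-EIF5A2 replicate 1 was left out, with adjusted p from 0.063 to 0.0889.

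SERPINA5, the protein C inhibitor, and SERPINF2, the circulating inhibitor of plasmin, were both under 1.5 CPM in every library. SERPINA5 was at 1.49, 0.325 and 1.06 CPM in NC and at 0.430, 0.364 and 0.167 CPM in si-EIF5A2, so 1 NC library lay within the si-EIF5A2 range. Its log2 fold change was -1.57 ± 0.67 (SE, edgeR adjusted p = 0.105). Without NC replicate 2 it was -1.99 (edgeR adjusted p = 0.0374). SERPINF2 was at 0.562, 0.381 and 0.255 CPM in NC and at 0.0782, 0.307 and 0 CPM in si-EIF5A2, and its groups overlapped too. Neither gene was called.

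Because levels of different genes can be compared only per length, the activators, the receptor and SERPINE2 were also set on a scale of CPM per kilobase of exon. On that scale PLAU was at 1057 ± 34.1 in NC and 832 ± 48.1 in si-EIF5A2, and PLAUR at 64.3 ± 4.01 and 67.5 ± 4.23 (SD, n = 3 each). PLAT was at 13.5 ± 0.71 and 5.21 ± 0.875, and SERPINE2 at 7.37 ± 1.23 and 12.9 ± 1.65. SERPINE2 RNA was thus less abundant than PLAT RNA in each NC library and more abundant in each si-EIF5A2 library. The ratio of SERPINE2 to PLAT was 0.568, 0.599 and 0.464 in NC and 2.32, 1.94 and 3.41 in si-EIF5A2, with a log2 difference of 2.20. An exact 2-sided permutation test of 3 against 3 libraries gave p = 0.1, the smallest it allows. SERPINE2 was higher and PLAT lower in every si-EIF5A2 library, so their ratio had to separate. The test of the ratio therefore adds nothing to the values of the single genes. This pair was chosen after its values were seen. Against PLAU, SERPINE2 had ratios of 0.00737, 0.00775 and 0.00575 in NC and 0.0171, 0.0130 and 0.0166 in si-EIF5A2. SERPINE2 RNA thus rose relative to PLAU RNA and stayed far below it in every library. PLAU too was lower in every si-EIF5A2 library, so this separation was fixed in the same way. The ratio of PLAU to PLAT was 77.1, 77.3 and 80.7 in NC and 136, 149 and 206 in si-EIF5A2, so urokinase outweighed the tissue activator in every library, and by more in each si-EIF5A2 library. The ratio of PLAUR to PLAU was 0.0611, 0.0636 and 0.0578 in NC and 0.0809, 0.0803 and 0.0822 in si-EIF5A2, also without overlap. These are ratios of RNA, and protein or protease activity was not measured here.

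**Figure D2:**
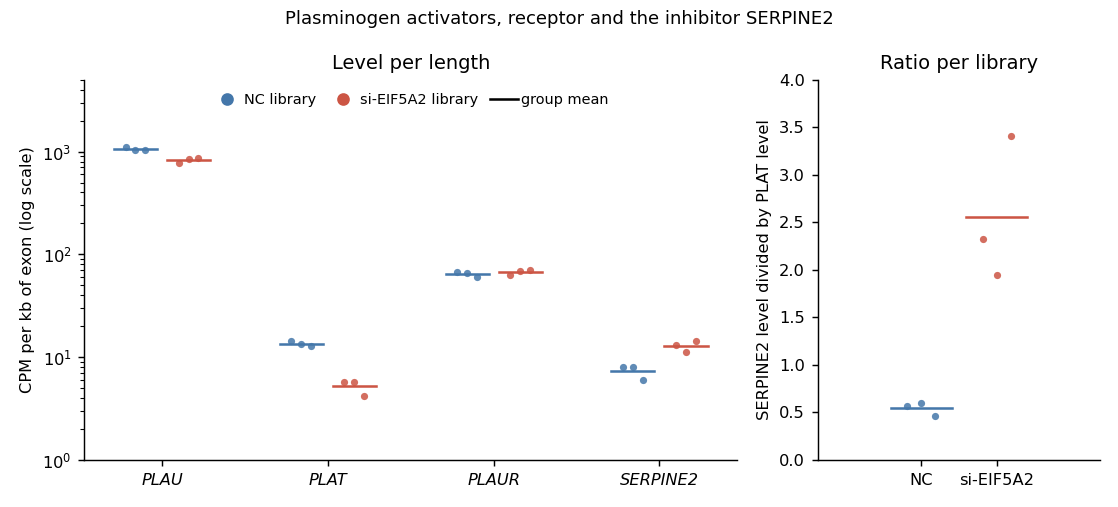
Left, level per length of PLAU, PLAT, PLAUR and SERPINE2 in CPM per kilobase of exon, on a log axis. Right, SERPINE2 level divided by PLAT level in each library, on a linear axis from 0. Points are libraries and short lines are means of 3, and the ratio was between 0.464 and 0.599 in NC and between 1.94 and 3.41 in si-EIF5A2.

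SERPINB7 and SERPINB8, both called higher, lie in the same stretch of chromosome 18. There 10 serpins, SERPINB5 to SERPINB8 in chromosome order, lie within 543 kb (63476761 to 64019779, GRCh38). Only 4 of the 10 were tested, SERPINB5, SERPINB7, SERPINB2 and SERPINB8, and of these all but SERPINB5 rose. Without SERPINB2, which could pass the filter on low counts only where it was high, 2 of 3 rose, beside 11.1% of all tested genes. The other 6, SERPINB12, SERPINB13, SERPINB4, SERPINB11, SERPINB3 and SERPINB10, had 0 counts in every library. Of the 5 other protein-coding genes tested within 1000 kb of this stretch, 1 rose, ZCCHC2, with a log2 fold change of 1.10 (edgeR adjusted p = 0.00388). PHLPP1, BCL2, KDSR and VPS4B were not called.

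The start-site windows of the 4 tested genes are shown because these genes lie in the same stretch, with untested serpins between them. SERPINB7 and SERPINB8 rose, and the filter on low counts had fixed the direction of SERPINB2. Each window runs from 250 bases before to 50 bases from the start site in RefSeq (GRCh38.p14), 5′ to 3′ on the plus strand. Capitals mark matches, on either strand, to the letters TGANTCA or to TATAAA, the TATA box. TGANTCA allows any middle base and is looser than the core that AP-1 factors such as FOS and JUN dimers bind. SERPINB5 is at chr18:63476708-63477007, SERPINB7 has windows at chr18:63775168-63775467 and chr18:63777531-63777830, SERPINB2 is at chr18:63887455-63887754 and SERPINB8 at chr18:63969831-63970130.
SERPINB5: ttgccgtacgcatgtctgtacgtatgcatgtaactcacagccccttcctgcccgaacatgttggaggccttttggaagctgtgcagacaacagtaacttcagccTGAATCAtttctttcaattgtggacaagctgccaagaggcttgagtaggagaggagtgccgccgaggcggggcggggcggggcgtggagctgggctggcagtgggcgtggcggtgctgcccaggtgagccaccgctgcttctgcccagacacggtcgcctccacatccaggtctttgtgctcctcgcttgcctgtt
SERPINB7 middle start: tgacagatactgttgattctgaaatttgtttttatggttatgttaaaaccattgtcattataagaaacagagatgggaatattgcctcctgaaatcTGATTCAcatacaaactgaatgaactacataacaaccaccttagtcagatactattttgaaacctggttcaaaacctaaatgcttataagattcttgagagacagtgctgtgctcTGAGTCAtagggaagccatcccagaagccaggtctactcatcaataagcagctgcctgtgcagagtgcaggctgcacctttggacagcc
SERPINB7 downstream start: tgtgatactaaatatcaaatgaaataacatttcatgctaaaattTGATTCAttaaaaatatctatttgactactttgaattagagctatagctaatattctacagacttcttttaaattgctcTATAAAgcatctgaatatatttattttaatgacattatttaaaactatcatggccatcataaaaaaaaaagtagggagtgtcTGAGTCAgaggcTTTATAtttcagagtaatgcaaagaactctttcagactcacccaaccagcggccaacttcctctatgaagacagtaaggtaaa
SERPINB2: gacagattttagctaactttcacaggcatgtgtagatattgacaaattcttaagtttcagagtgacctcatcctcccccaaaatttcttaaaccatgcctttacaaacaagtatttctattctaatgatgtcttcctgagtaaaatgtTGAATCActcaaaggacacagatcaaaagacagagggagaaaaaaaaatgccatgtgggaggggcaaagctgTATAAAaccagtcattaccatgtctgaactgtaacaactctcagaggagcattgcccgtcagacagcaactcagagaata
SERPINB8: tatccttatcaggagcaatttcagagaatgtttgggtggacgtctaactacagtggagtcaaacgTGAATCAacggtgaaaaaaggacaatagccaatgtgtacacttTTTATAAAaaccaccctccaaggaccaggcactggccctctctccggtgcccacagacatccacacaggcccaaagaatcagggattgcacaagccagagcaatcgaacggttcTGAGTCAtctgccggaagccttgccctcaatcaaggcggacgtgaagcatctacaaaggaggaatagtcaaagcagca

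All 4 of these genes held TGANTCA in at least 1 window. SERPINB7 and SERPINB8 held TGAGTCA, while SERPINB2 and SERPINB5 matched only as TGAATCA. Counted from 0 at the start site, a match ended at -33 in the middle window of SERPINB7 (TGAGTCA, -39 to -33), at -39 in its downstream window (TGAGTCA, -45 to -39), at -22 in SERPINB8 (TGAGTCA, -28 to -22), at -96 in SERPINB2 (TGAATCA, -102 to -96) and at -140 in SERPINB5 (TGAATCA, -146 to -140). SERPINB2 also held TATAAA from -30 to -25 and the downstream SERPINB7 window from -33 to -28, there on the minus strand. In SERPINB8 the TATAAA matches, from -142 to -137 and from -140 to -135, overlap each other. Of the 4 untested genes of the stretch that have a window, SERPINB12 and SERPINB13, both at 0 counts, held TGANTCA and TATAAA as well. Among the 10 tested members on other chromosomes that have a window, only PLAUR held TGANTCA and only SERPINB6 held TATAAA. Of the 12 members at 0 counts in every library that have a window, 6 held TATAAA. By window, TGANTCA was in 5 of 6 for the tested genes of the stretch and in 3 of 17 for the members at 0. TATAAA was in 3 of 6 and in 7 of 17 of these windows. Over all 35116 windows of this length, 7.71% held TGANTCA and 11.5% held TATAAA. No such share was worked out for TGAGTCA alone. A match describes letters in the window and does not show that a factor was bound.

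The most upstream SERPINB7 window, not shown, held neither element and matched the NF-kappaB element, as did a window of SERPINH1, where 5.91% of all windows match. The E-box CACGTG was found in a window of SERPINE2 and in 7.26% of all windows. The cAMP response element TGACGTCA (1.85% of all windows), the E2F element TTTNGCGC (1.79%), the SMAD box GTCTAGAC (0.202%) and the KLF element CACACCC (7.56%) had no match in the windows of these tested members. Windows were at hand for 14 of the 17 tested members described, without SERPINF1, SERPINF2 and PLAT.

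SERPINB7, or megsin, an inhibitory serpin first described in mesangial cells of the kidney, lies at 63752935 to 63805376 on the plus strand of chromosome 18. It was at 5.37, 5.96 and 7.997 CPM in NC and at 55.2, 52.4 and 55.7 CPM in si-EIF5A2. The lowest si-EIF5A2 library was far above the highest NC library. The mean was 6.44 ± 1.38 CPM in NC and rose 8.46-fold, to 54.5 ± 1.77 CPM (SD, n = 3), a log2 fold change of 3.08 ± 0.16 (SE, edgeR adjusted p = 9.00e-06). In CPM per kilobase of exon, SERPINB7 went from 2.44 to 20.7 and SERPINB8 from 2.11 to 4.51. The ratio of SERPINB7 to SERPINB8 was 1.03, 1.05 and 1.38 in NC and 4.22, 4.56 and 5.01 in si-EIF5A2, so each si-EIF5A2 library was above every NC library.

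SERPINB8, which inhibits the proprotein convertase furin, lies at 63969925 to 64019779. It was at 11.6, 12.6 and 12.9 CPM in NC and at 29.1, 25.6 and 24.8 CPM in si-EIF5A2, without overlap. The mean rose 2.14-fold, a log2 fold change of 1.10 ± 0.11 (SE, edgeR adjusted p = 0.000191). It shares 6.3% of its exon bases with HMSD, which held at most 15 counts in any library.

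SERPINB2, or plasminogen activator inhibitor 2, a clade B serpin that inhibits urokinase and is found mostly inside cells, lies at 63871692 to 63903890. It was nearly absent from NC, with 4, 0 and 8 counts, and held 82, 44 and 84 counts in si-EIF5A2. In CPM these were 0.0548, 0 and 0.170 against 1.60, 0.843 and 1.75. SERPINB2 passed the filter on low counts only through its si-EIF5A2 libraries. Its direction and the lack of overlap between the groups were therefore fixed by that filter, and its p-value is no separate evidence of a rise. By the size of 1 fragment this was about 3 fragments in all NC libraries and about 55 in all si-EIF5A2 libraries, a ratio of 23.3 with an exact 95% counting interval of 7.57 to 116. This interval covers counting error only. The fitted log2 fold change was 4.30 ± 0.96 (SE, edgeR adjusted p = 0.00976) and depends on how values near 0 are handled. Of its 2748 exon bases, 547 (19.9%) are shared with SERPINB10, which had 0 counts. SERPINB5, or maspin, a serpin not known to inhibit proteases, was at 0.0274, 0.226 and 0.404 CPM in NC and at 0.215, 0.575 and 0.250 CPM in si-EIF5A2, with overlapping groups (edgeR adjusted p = 0.617).

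**Figure D3:**
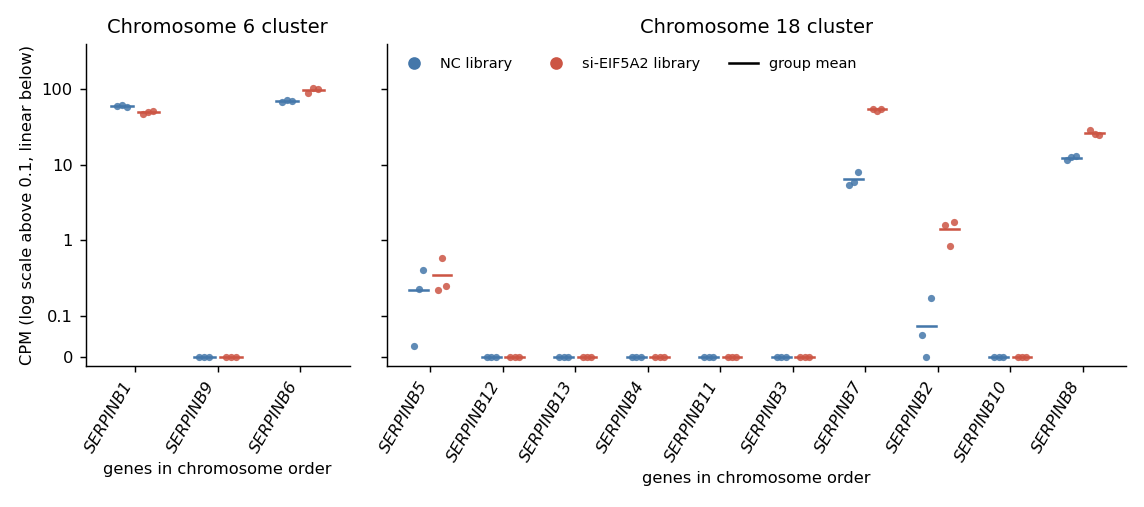
Level of each serpin of the chromosome 6 and chromosome 18 clusters in every library, in CPM on a scale that is logarithmic above 0.1 and linear below, with genes in chromosome order. Points are libraries and short lines are means of 3. SERPINB7 and SERPINB8 were higher in all 3 si-EIF5A2 libraries than in any NC library. So was SERPINB2, whose direction the filter on low counts had fixed. SERPINB5 overlapped, and 6 genes of chromosome 18 and SERPINB9 were at 0 throughout.

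The second clade B cluster, on chromosome 6, holds SERPINB1, SERPINB9 and SERPINB6 within 139.8 kb (2832332 to 2972165), and no gene of it was called. SERPINB6, an intracellular inhibitor of cathepsin G, was at 67.6, 72.5 and 69.2 CPM in NC and at 90.9, 103 and 101 CPM in si-EIF5A2. SERPINB1, an inhibitor of neutrophil elastase, was at 59.9, 62.0 and 58.6 CPM in NC and at 47.0, 49.98 and 51.3 CPM in si-EIF5A2. Neither pair of groups overlapped, and the genes lay on opposite sides. The log2 fold change was 0.49 ± 0.08 for SERPINB6 (SE, edgeR adjusted p = 0.00205) and -0.28 ± 0.08 for SERPINB1 (SE, edgeR adjusted p = 0.0225), both under the fold limit. For SERPINB1 the edgeR adjusted p was 0.0884 with NC replicate 2 left out and 0.0657 with si-EIF5A2 replicate 1 left out. SERPINB9, the granzyme B inhibitor of lymphocytes, had 0 counts in every library, which allows up to 3 fragments.

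The other secreted inhibitory serpins, those not grouped above as inhibitors of plasminogen activators or plasmin, were mostly absent or too low to be tested. Of 12 genes in this group, 5 had 0 counts in every library and 2 were tested. SERPINA1, or alpha-1 antitrypsin, the main elastase inhibitor of plasma, was at 11.1, 16.7 and 15.4 CPM in NC and at 8.78, 8.93 and 5.05 CPM in si-EIF5A2. The groups did not overlap, and the mean was 14.4 ± 2.97 CPM in NC and fell to 7.58 ± 2.20 CPM (SD, n = 3). The log2 fold change was -0.92 ± 0.26 (SE, edgeR adjusted p = 0.0247). The call was lost without NC replicate 2 (log2 fold change -0.80, edgeR adjusted p = 0.0792) and without NC replicate 3 (log2 fold change -0.88, edgeR adjusted p = 0.0728). SERPINA1 lies in a cluster of 9 serpins within 343.6 kb on chromosome 14 (94280455 to 94624055). SERPINA5 was the other tested gene of that cluster, and 5 of the 9 had 0 counts in every library. SERPIND1, heparin cofactor II, was at 0.439 to 1.36 CPM in NC and at 0.665 to 1.67 CPM in si-EIF5A2, with overlapping groups (edgeR adjusted p = 0.547).

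The 5 untested members above 0 held few counts. SERPINE3 had 6, 0 and 0 counts in NC and 20, 9 and 10 in si-EIF5A2, about 2 against 10 fragments, a ratio of 6.35 with an exact 95% counting interval of 1.35 to 59.6. SERPING1, the C1 inhibitor of complement, had 0, 8 and 6 counts in NC and 4, 0 and 0 in si-EIF5A2. That was about 4 against 1 fragments, a ratio of 0.318 with an exact 95% counting interval of 0.00645 to 3.21. Both intervals cover counting error only and not the spread between libraries. SERPINA3, or alpha-1 antichymotrypsin, had 0, 34 and 2 counts in NC and 0 in each si-EIF5A2 library, so nearly all came from NC replicate 2. SERPINA9 and SERPINC1, antithrombin, each had counts in a single si-EIF5A2 library, 4 and 8. These 5 genes lay under the count minimum of the test.

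Among serpins that do not inhibit proteases, SERPINH1 was the abundant one. It encodes HSP47, a chaperone of the endoplasmic reticulum that binds folded procollagen. SERPINH1, on chromosome 11 (75562056 to 75572783, plus strand), was at 283, 253 and 248 CPM in NC and at 203, 242 and 212 CPM in si-EIF5A2. The ranges came close without overlapping, and the log2 fold change was -0.25 ± 0.09 (SE, edgeR adjusted p = 0.063), which did not pass. SERPINF1, pigment epithelium-derived factor, was at 1.25, 1.2 and 1.21 CPM in NC and at 0.704, 0.153 and 0.876 CPM in si-EIF5A2. It had no overlap and a log2 fold change of -1.08 ± 0.58 (SE, edgeR adjusted p = 0.191). SERPINA6 and SERPINA7, the carriers of cortisol and thyroxine, had 0 counts in every library.

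**Figure D4:**
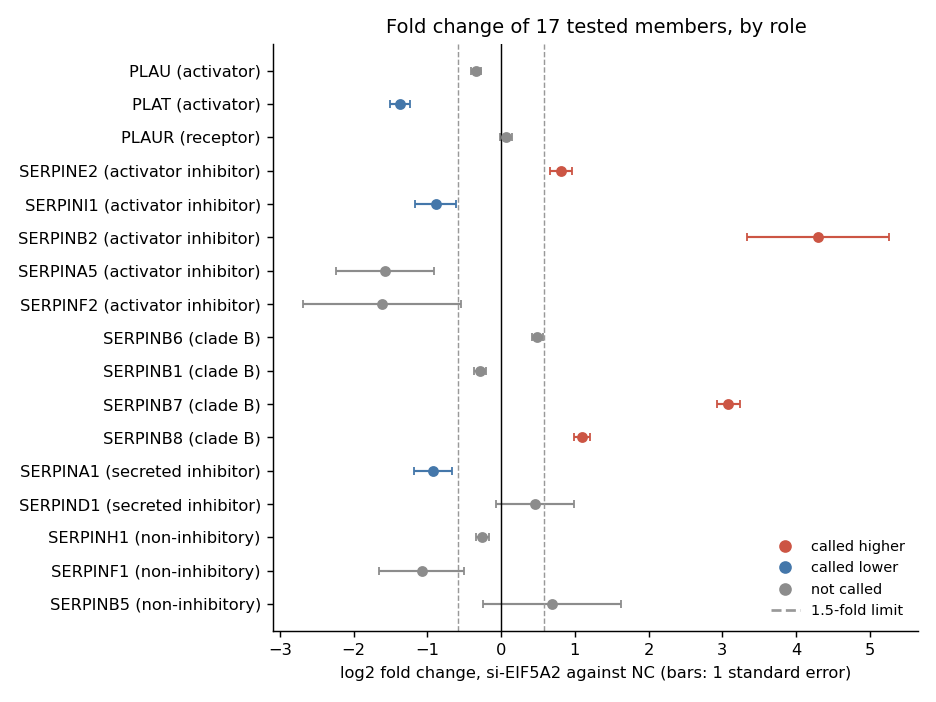
Log2 fold change of si-EIF5A2 against NC for the 17 tested members described, grouped by role, with bars of 1 standard error. Dashed lines mark the 1.5-fold limit and colours mark the 7 called genes, 4 higher and 3 lower. The widest bars belong to genes near or under 1 CPM, such as SERPINF2, SERPINB2 and SERPINB5.

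The genes around the system were read from 7 lists drawn up by role. For each list the number called stands against the 24.6% of all tested genes. Plasminogen itself (PLG) was not tested, with 0 counts in every library. Of the 9 genes for plasminogen and its cell-surface receptors, 7 were tested, 1 rose and 1 fell, with a median log2 fold change of -0.23. H2BC21, a histone that also binds plasminogen at the cell surface, rose (log2 fold change 1.01 ± 0.12, SE), and PLGRKT, a transmembrane plasminogen receptor, fell (-1.0 ± 0.13).

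Of 17 endocytic receptors and partners of the urokinase receptor, 14 were tested, 4 rose and 3 fell, with a median log2 fold change of 0.15. ITGAV and ITGB1, integrin subunits, and IGF2R, which binds latent growth factors, rose by 0.86 ± 0.17, 0.74 ± 0.13 and 0.81 ± 0.10 on the log2 scale (SE). SORL1, an endocytic sorting receptor, and the integrin subunits ITGA3 and ITGA5 had log2 fold changes of -1.75 ± 0.30, -1.35 ± 0.07 and -0.88 ± 0.07. ITGA3 was the most abundant of the 3, with 2229 ± 117 CPM in NC libraries and 872 ± 19.9 CPM after the knockdown (SD, n = 3).

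Of 16 genes listed around activation by plasmin or urokinase, 12 were tested, 3 rose and 2 fell, with a median log2 fold change of -0.16. The list includes LTBP1, a binding protein, beside proteins that can be activated. MMP1, interstitial collagenase, rose from 0.524 ± 0.328 to 2.75 ± 0.677 CPM, and the membrane-bound MMP14 from 717 ± 10.7 to 1171 ± 114 CPM (SD, n = 3 each). LTBP1, which holds latent TGF-beta in the matrix, rose from 2.69 ± 0.229 to 4.65 ± 0.316 CPM. The gelatinases MMP2 and MMP9 fell, with log2 fold changes of -1.25 ± 0.27 and -0.65 ± 0.18 (SE). The MMP9 call was lost without NC replicate 1, si-EIF5A2 replicate 1 or si-EIF5A2 replicate 2 (edgeR adjusted p from 0.059 to 0.0796). The genes of this list thus went in both directions.

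Inhibitors outside the serpin family and membrane serine proteases gave 12 tested of 21, 3 higher and 3 lower, with a median of -0.23. TFPI2, a Kunitz inhibitor of plasmin and other matrix proteases, rose from 28.1 ± 7.41 to 120 ± 21.7 CPM (SD, n = 3 each), and TFPI, the inhibitor of the tissue factor pathway, from 42.2 ± 3.11 to 69.0 ± 5.33 CPM. PI3, or elafin, rose with a log2 fold change of 2.43 ± 0.25 (SE). CSTB, a cytosolic cathepsin inhibitor, was the most abundant gene of this list to fall, from 285 ± 12.01 to 73.3 ± 4.70 CPM. SLPI and SPINT2 fell too, with log2 fold changes of -1.64 ± 0.50 and -0.74 ± 0.16. The SLPI call was lost when any library other than si-EIF5A2 replicate 2 was left out (edgeR adjusted p from 0.0527 to 0.126).

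Of 38 proteases that serpins inhibit, 17 were tested, 2 rose and 1 fell, with a median of -0.23. The gene that fell was PLAT, which is itself a member. C1S, a target of SERPING1, and CTSB, or cathepsin B, rose with log2 fold changes of 1.80 ± 0.35 and 0.88 ± 0.11 (SE). Of 16 coagulation receptors and cofactors, 8 were tested, 1 rose and 2 fell, with a median of -0.47. F3, tissue factor, rose from 4.79 ± 0.921 to 12.9 ± 1.46 CPM (SD, n = 3 each), while the protein C receptor PROCR and its pathway's cofactor PROS1 had log2 fold changes of -0.98 ± 0.08 and -0.75 ± 0.13.

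The collagen folding enzymes and chaperones that work beside SERPINH1 were all tested, 24 of 24. Of these, 9 rose and 4 fell, with a median log2 fold change of 0.19. FKBP14, P4HA2 and P3H2, which isomerise or hydroxylate procollagen prolines, had log2 fold changes of 2.01 ± 0.13, 1.79 ± 0.09 and 1.46 ± 0.11 (SE). SEC23A, a coat protein of the vesicles that export procollagen, fell, with -1.34 ± 0.12, and the collagen galactosyltransferases COLGALT2 and COLGALT1 fell, with -1.18 ± 0.18 and -0.83 ± 0.07. SERPINH1 did not pass the test, as given above.

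**Figure D5:**
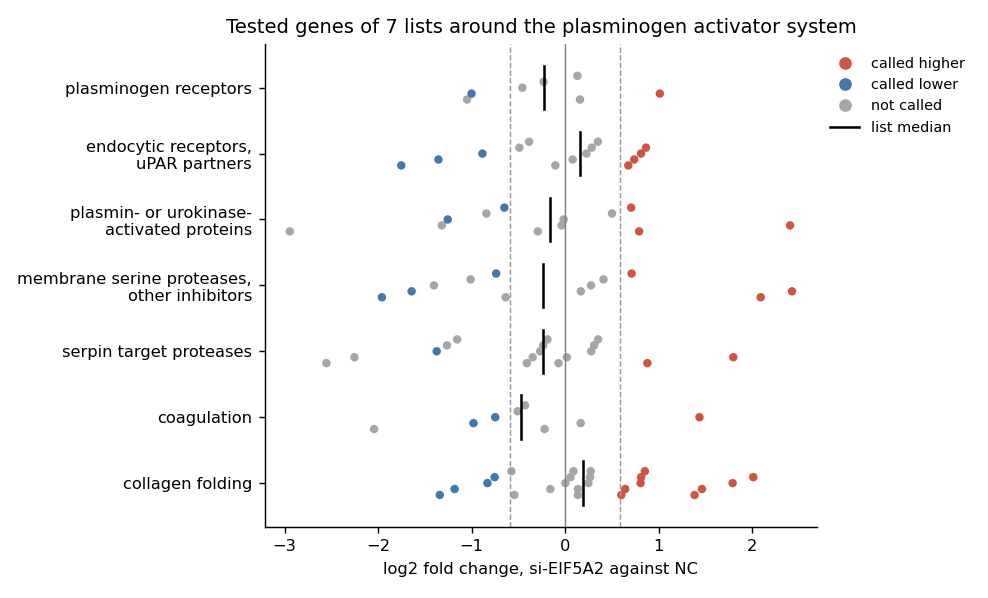
Log2 fold change of si-EIF5A2 against NC for every tested gene of 7 lists around the plasminogen activator system, 1 point per gene. Coloured points were called, black ticks are list medians and dashed lines mark the 1.5-fold limit. Each list had called genes on both sides of 0.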

How the data were processed

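RNA from SKOV3 cells, 3 NC and 3 si-EIF5A2 libraries, was sequenced as paired-end mRNA. StringTie and ballgown were the tools by which the authors estimated transcripts. They deposited estimated counts (expected counts) per gene, whole and without normalization. The submitters' processing notes name Bowtie 0.12.2 and the mouse builds mm8 and mm9, although the identifiers are human, and the build of the counts is not given in the sources used here. Columns were matched to libraries by name, and 0 per-sample columns were unused. Low values pile up near multiples of 3.82, taken as 1 fragment. Whether counting used strand is not given.

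Gene types and coordinates came from GENCODE release 29 (58552 of 58825 identifiers found, GRCh38), and start-site windows from RefSeq (GRCh38.p14). Symbols came from a separate list of gene names, which held 58472 of the identifiers. Another 8 matching symbols were excluded as pseudogenes or non-coding. edgeR 4.0.16 in R 4.3.3 ran filterByExpr, TMM and the robust quasi-likelihood test on all 6 libraries, with Benjamini-Hochberg adjustment over 16208 genes. Planned for counts, this test was run on the estimated counts unrounded because they were already whole. Calls needed both an adjusted p below 0.05 and a change of over 1.5-fold. Pipelines were tested on simulated data. There the edgeR test recovered 45.5% of 2-fold and 84.2% of 4-fold changes, and 0.794% of its calls were false. A gene that was not called may therefore still differ. The text names every called member, the main components of the system whatever their result, and up to 3 called genes per direction of each list. The results of 1 member and of 1 listed gene are not reported here, and counts leave them out. Members and lists were chosen with earlier results of these data known. Alternatives were DESeq2 1.42.0, other scalings, filters, thresholds and count scales, a replicate block and leaving out each library. Same-numbered libraries had deviations correlated at -0.0244, 0.00522 and -0.00269.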

Additional observations from a re-analysis of the deposited data

How the results depend on the processing

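Across 13 refits (DESeq2, 2 other scalings, 2 other filters on low counts, a replicate block, counts divided by the fragment size, and each of the 6 libraries left out), 0 of the 213 member values changed sign. Of 90 values for called members, 82 stayed called and 8 did not, 6 of them for SERPINI1 and 2 for SERPINA1. The 82 include 12 for SERPINB2, whose direction the filter on low counts had fixed in the main test. These 12 are also among the 213, and they add no support to either count. SERPINA5 was gained once, without NC replicate 2. SERPINB2 could not be tested where at least 10 counts were asked of every library. The number of members called was 5 to 7 with 1 library left out, 4 to 5 of them higher and 1 to 3 lower, the 1 without NC replicate 3. The additional higher gene, without NC replicate 1, was SERPINE3, which the filter on low counts removes with all 6 libraries. Without that library it had 0 counts in both NC libraries, entered only through si-EIF5A2 and had to differ. With no limit on the fold change, 10 members passed, 5 higher and 5 lower, and at an unadjusted p under 0.05 with a fold change over 2, 5 passed. By that rule the lists had 2 called genes in place of 7 for endocytic receptors and urokinase receptor partners, and 1 in place of 3 for coagulation. The list around activation by plasmin or urokinase had 3 in place of 5, and collagen folding had 6 in place of 13. No share over all tested genes was worked out for these other limits. These member and list counts therefore show only how the calls shift, not whether they exceed that share. Labels give both groups the replicate numbers 1 to 3, but the libraries do not deviate together by number. With the replicate block, 6 members were called, 4 higher and 2 lower, and SERPINI1 had an edgeR adjusted p of 0.0575. Depth limits the genes under about 1 CPM.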
